A study of Homo sapiens with 24 samples.

Results

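The line difference in the response to slow rotation was measured as the change from flat culture to rotation at 1 rpm in PANC-1 cells, less the same change in HEK293T cells, gene by gene. A gene entered if its mean expression reached 1 FPKM in at least 1 of these formats in each line. FPKM is fragments scaled by transcript length and by library depth. A gene below that level in 1 format entered through the other, so for such genes entry was not independent of the response. The rule kept 10510 of the 26450 genes in the deposited table, and each of them was among the 13392 genes tested. PANC-1 cells are an established human line of pancreatic duct carcinoma origin. HEK293T cells are an established line of human embryonic kidney that carries the SV40 large T antigen. The groups compared were PANC-1 in 2D, PANC-1 in the dual-axis rotating capillary container (DRCC) at 1 rpm, HEK293T in 2D and HEK293T in the DRCC at 1 rpm, with 3 libraries each and no drug or genetic treatment named. AggreWell (microwell) spheroids and DRCC spheroids at 30 rpm, also 3 libraries per line, gave values to set beside them. Days in culture, spheroid size, medium and seeding are not given in the labels. The labels do not say that the 3 libraries of a group came from separate cultures, so each p-value measures only how far these libraries spread, and that spread may be technical.

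Cells that move from a flat surface into a spheroid lose spread-out adhesion, gain contacts with neighbours and meet steeper gradients of oxygen and nutrients. Flattened, spread cells keep the coactivators YAP and TAZ in the nucleus, where they bind TEAD factors and switch on genes such as CCN1, CCN2 and ANKRD1. The decision to start a round of DNA synthesis runs through E2F factors, which the retinoblastoma protein restrains, and viral large T antigen binds that protein and releases E2F. Sterol supply is sensed in the endoplasmic reticulum, where low sterol releases SREBP factors that switch on the enzymes of cholesterol and fatty acid synthesis.

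Library depth ran from 32021638 to 39556154 fragments over the 24 libraries. In 2D, PANC-1 held S100A6 at 1710 FPKM and CD44 at 250 FPKM, while HEK293T listed CD44 at 0, and HOXA9 stood at 8.6 FPKM in HEK293T and was listed at 0 in PANC-1. All 14 PANC-1 markers reached 1 FPKM in PANC-1 2D, and 8 of them also did in HEK293T 2D. Of 10 HEK293T markers, 6 reached it in HEK293T 2D, where DPPA4, TFAP2B and SOX11 were near 0, and 3 in PANC-1 2D. PAX2, listed for HEK293T, was higher in PANC-1 2D, at 4.56 FPKM against 1.56 in HEK293T 2D. KDR alone of 4 endothelial markers reached 1 FPKM in PANC-1 2D, and 2 of 5 fibroblast markers did so in 2D in both lines. Of 4 leukocyte markers, CD68 alone reached 1 FPKM in PANC-1, and PTPRC was near 0 in both lines. Fragments from mitochondrially encoded genes made up 4.325% ± 0.3103 in PANC-1 2D and 2.372% ± 0.07165 at 1 rpm, against 4.773% ± 0.0849 and 3.468% ± 0.09086 in HEK293T (SD, n = 3 each). The part of this shift in the results was not tested. The setting that left those genes out also rescaled every library to an equal FPKM total, so it cannot isolate them. Replicate 1 of PANC-1 2D, replicate 2 of HEK293T 2D and replicate 2 of HEK293T at 1 rpm stood apart from their groups. Their chi-square per gene against the other two libraries was 6.76 to 9.81, against 2.81 to 3.72 for the other pairs of the 4 groups compared. Without each in turn, 8088, 8221 and 7954 genes had a called line difference, and all 1143 differences of at least 2-fold described below were still called in the same direction.

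Both lines changed much of their expression between 2D and 1 rpm, and a large share of genes changed by a different amount in each line. A gene was called at a Benjamini-Hochberg adjusted p under 0.05 in limma on log2(FPKM + 1). In PANC-1, 5545 genes rose (52.8% of the 10510, against 49.0% of all 13392 tested) and 3595 fell (34.2%, against 30.0%). In HEK293T, 5452 rose (51.9%, against 52.1%) and 3638 fell (34.6%, against 30.2%). The line difference itself was called for 8150 genes (77.5%, against 75.8% of all tested). The PANC-1 change was above the HEK293T change for 4069 (38.7%, against 35.8%) and below it for 4081 (38.8%, against 40.0%). The SD of the line difference over genes was 0.648 log2 units, and its median standard error was 0.0678. A difference of at least 2-fold was called for 1143 genes (10.9%, against 10.8% of all tested), 486 with PANC-1 above (4.62%, against 4.37%) and 657 with PANC-1 below (6.25%, against 6.48%). Of the 10510 genes, 9370 reached 1 FPKM in all 4 groups, and 959 of these (10.2%) had such a difference. The other 1140 entered through their higher format in at least 1 line, and 184 of them had one. Median-ratio scaling moved the median change of all genes from 0.152 to -0.056 in PANC-1 and from 0.147 to -0.064 in HEK293T. It moved the median line difference only from -0.001 to 0.008. Line differences also depended on the processing. With mitochondrially encoded genes left out and libraries rescaled to equal totals, their median was -0.080, with 3481 genes called above and 4638 below. The sign of a small change in 1 line is named below only with that limit of scaling.

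The shared component was of similar breadth. Of 8020 genes called in both lines, 6250 (77.9%) moved the same way, 3990 up and 2260 down, and 1770 moved in opposite directions. Across genes, the responses of the lines had a Pearson r of 0.561 and a Spearman rho of 0.573. The lines have no library in common, and genes are not independent replicates. For 4765 genes (45.3%), the 95% interval of the line difference lay within 0.5 log2 units of 0. Among the 1143 genes with a difference of at least 2-fold, the larger change was a rise in HEK293T for 437, a rise in PANC-1 for 382, a fall in PANC-1 for 220 and a fall in HEK293T for 104.

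**Figure D1:**
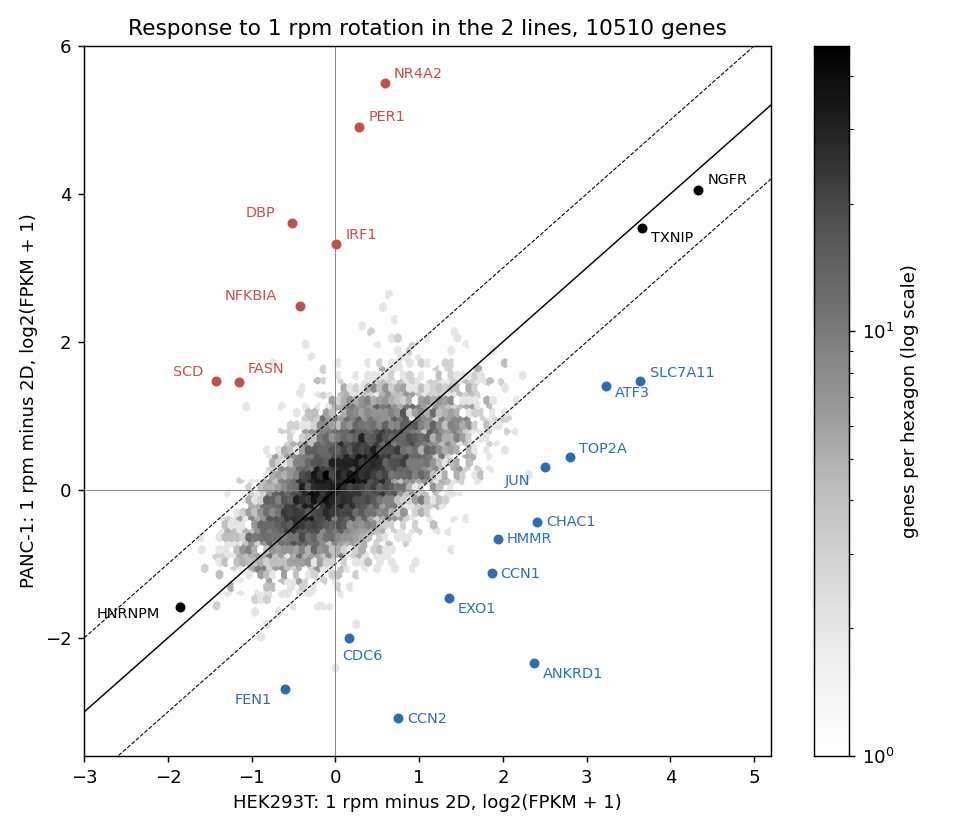
Change from 2D to 1 rpm in HEK293T (horizontal axis) and PANC-1 (vertical axis), both as differences of mean log2(FPKM + 1) over 3 libraries per group, for 10510 genes. Shading gives genes per hexagon on a log scale; the solid line marks equal change and the dashed lines a 2-fold line difference; labelled points are genes named in the text, such as PER1 (4.91 in PANC-1 and 0.29 in HEK293T) and TOP2A (0.45 and 2.80).

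DNA replication genes all lay on one side. All 35 listed genes were measured and all 35 had a called line difference with PANC-1 below, at a median of -1.35 log2 units against a median of -0.0010 over all 10510 genes. All 35 fell in PANC-1, with a median of -1.51. In HEK293T, 15 rose and 18 fell, with a median of -0.17, against 51.9% and 34.6% of the 10510 genes. Under median-ratio scaling 7 rose and 22 fell (median -0.41), and under quantile normalization 14 rose and 16 fell (median -0.00). The promoter of CDC6, which loads the replicative helicase onto origins, is shown because it carries an E2F site, the element through which such genes are switched on. The sequence runs 5′ to 3′ on the plus strand at chr17:40287629-40287928, from 250 bases before to 50 bases after the RefSeq start in GRCh38.p14, and capitals mark the E2F match.
CDC6: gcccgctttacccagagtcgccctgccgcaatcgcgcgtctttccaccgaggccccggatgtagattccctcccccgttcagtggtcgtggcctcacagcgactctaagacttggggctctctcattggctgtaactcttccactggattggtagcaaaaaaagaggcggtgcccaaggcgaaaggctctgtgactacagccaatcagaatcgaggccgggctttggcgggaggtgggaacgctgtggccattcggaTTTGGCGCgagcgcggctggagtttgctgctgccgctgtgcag

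CDC6 was at 16.8, 17.7 and 18.9 FPKM in the PANC-1 2D libraries and at 3.85, 3.55 and 3.67 at 1 rpm. In HEK293T it was at 22.2, 22.8 and 22.3 in 2D and at 25.2, 25 and 25.5 at 1 rpm. The PANC-1 libraries at 1 rpm were the lowest of the 12, and the formats did not overlap in either line. CDC6 fell by 2.00 log2 units in PANC-1. Its HEK293T change of 0.16 was -0.07 and not called under median-ratio scaling. The result was a line difference of -2.17 (SE 0.05, adjusted p = 5.7e-19).
MCM10, another origin factor, had a line difference of -2.56 (-1.92 in PANC-1 and 0.64 in HEK293T). E2F1, the transcription factor, stood at -2.04 (-1.82 and 0.22), and RRM2, a subunit of the enzyme that makes deoxynucleotides, at -1.93 (-1.85 and 0.08). Under median-ratio scaling the HEK293T change of E2F1 was -0.01 and that of RRM2 was -0.16.
FEN1, the flap endonuclease that trims Okazaki fragments, fell in both lines but further in PANC-1. It went from 71.7, 72.3 and 74.5 FPKM to 9.38, 10.6 and 11.3 in PANC-1, and from 99.7, 96.7 and 98.7 to 63.8, 63.3 and 67 in HEK293T. The formats did not overlap in either line, which its naming pattern required in PANC-1. The fall was 2.70 log2 units against 0.60. MCM4, a helicase subunit, likewise fell by 2.01 in PANC-1, against a change of -0.31 in HEK293T that was -0.01 under quantile normalization. PCNA, the sliding clamp, fell by 1.39 in PANC-1, against a HEK293T change of 0.11 that turned to -0.13 under median-ratio scaling. CDC25A, the phosphatase that opens entry into S phase, fell by 2.52 in PANC-1, against a HEK293T change of -0.23 that was 0.04 with the trend in GC content and length removed.

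EXO1, the exonuclease of mismatch repair and end resection, was among the genes that moved in opposite directions. Its level was 12.7, 12.6 and 12.1 FPKM in PANC-1 2D and 4.05, 3.89 and 3.67 at 1 rpm. HEK293T libraries held 19.1, 18.4 and 19.3 FPKM in 2D and 51.6, 48.6 and 49.9 at 1 rpm. All HEK293T libraries at 1 rpm lay above every other library, and all PANC-1 libraries at 1 rpm below. Naming EXO1 among the opposite movers required formats without overlap in each line. The line difference was -2.82 (SE 0.06, adjusted p = 9.5e-20). ATAD2, a chromatin ATPase, fell by 0.53 in PANC-1 and rose by 2.09 in HEK293T. ERCC6L, a helicase of chromosome segregation, fell by 1.10 and rose by 1.63.

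Mitotic genes showed the same order of the lines but a different split. Of 31 listed genes, 30 had a called difference with PANC-1 below, and the median was -1.08. In PANC-1, 24 fell and 6 rose (median -0.71). In HEK293T, 17 rose and 9 fell, with a median of 0.20 that turned to -0.03 under median-ratio scaling. Over the 10510 genes, 51.9% rose and 34.6% fell in HEK293T, so these HEK293T counts were near the shares of all genes. HMMR, a microtubule-binding protein of the spindle, is shown for the paired cell cycle homology regions in its promoter, the element bound by the complexes that hold mitotic genes off until late in the cycle. Capitals mark the matches on the plus strand at chr5:163460382-163460681.
HMMR: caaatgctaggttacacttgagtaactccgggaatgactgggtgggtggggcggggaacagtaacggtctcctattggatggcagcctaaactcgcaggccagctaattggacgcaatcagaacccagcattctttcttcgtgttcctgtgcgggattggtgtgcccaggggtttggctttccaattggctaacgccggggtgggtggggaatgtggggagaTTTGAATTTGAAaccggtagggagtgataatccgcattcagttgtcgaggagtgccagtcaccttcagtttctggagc

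HMMR fell from 27.6, 28.2 and 29.2 FPKM to 17.6, 18 and 16.9 in PANC-1. It rose from 6.75, 8.38 and 6.63 to 30.1, 33.7 and 27.8 in HEK293T. HEK293T in 2D thus held the lowest libraries, and the formats did not overlap in either line (line difference -2.60, SE 0.09, adjusted p = 3.6e-16).
TOP2A, the DNA topoisomerase that untangles chromosomes, rose in both lines. Its FPKM went from 70.8, 69.4 and 70.5 to 96.7, 95.6 and 95.6 in PANC-1, and from 9.92, 11.2 and 10.2 to 76.3, 80.6 and 78.5 in HEK293T. The HEK293T libraries in 2D stood well below all others, and the rises were 0.45 and 2.80 log2 units. MKI67, the common proliferation marker, had a line difference of -2.31 (-0.85 in PANC-1 and 1.46 in HEK293T), and ANLN, a scaffold of the cleavage furrow, of -2.41 (-0.76 and 1.65).
SKA3, a kinetochore subunit, fell by 2.38 in PANC-1, while its HEK293T change of 0.02 was not called. The one mitotic gene without a called line difference was CCNB1, the cyclin that drives entry into mitosis. It went from 269, 276 and 272 FPKM to 121, 124 and 126 in PANC-1 and from 133, 129 and 128 to 57.4, 54.3 and 57.6 in HEK293T. The 95% interval of its line difference ran from -0.03 to 0.14, so the mitotic list did not move as a block in HEK293T.

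Promoter letters differed between these lists. Promoters in RefSeq were found for 8722 of the 10510 genes. The E2F site (TTTGGCGC, TTTCGCGC or TTTCCCGC, either strand) was in 19 of 30 DNA replication promoters (63.3%), in 5.09% of those of the 10510 genes, and in 2.79% of all promoters in the table. The cell cycle homology region (TTTGAA or TTCGAA, either strand) was in 19 of 26 mitotic promoters (73.1%), 10.5% of those of the 10510 genes and 16.6% of all promoters. Among genes with a line difference of at least 2-fold and PANC-1 below, the shares were 10.5% for the E2F site and 23.1% for the cell cycle homology region. The corresponding shares with PANC-1 above were 3.28% and 7.58%. A match describes letters in a window of 300 bases and not a bound site.

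**Figure D2:**
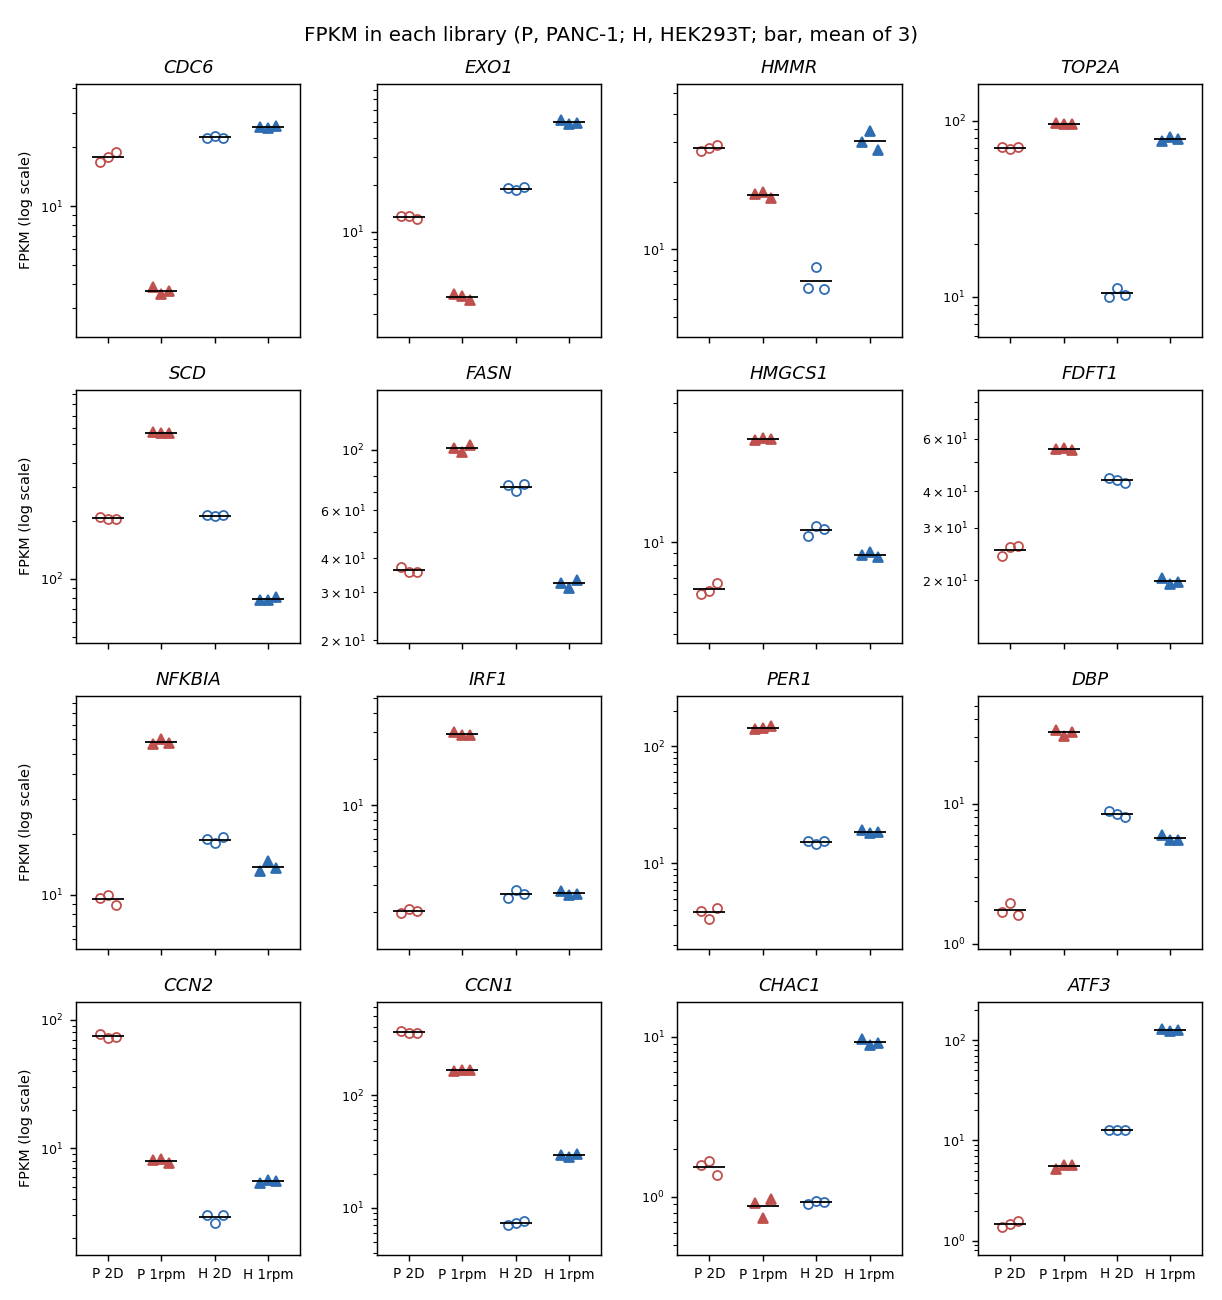
FPKM in each library on a log axis for 16 genes in PANC-1 (red, P) and HEK293T (blue, H), with open circles for 2D, filled triangles for 1 rpm and a bar at the mean of 3 libraries. SCD and FASN rise in PANC-1 and fall in HEK293T, CCN1 and EXO1 do the reverse, and TOP2A rises in both.

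Genes that hold the cell cycle back also differed by line. CDKN1B and CDKN1C encode p27 and p57, inhibitors of cyclin-dependent kinases. CDKN1B went from 13.3, 15.1 and 14.2 FPKM to 46.4, 47.4 and 47.6 in PANC-1, and from 11.5, 12.9 and 12.6 to 11.8, 12 and 12 in HEK293T. The PANC-1 formats were clearly apart and the HEK293T formats overlapped, with a line difference of 1.71 (SE 0.07, adjusted p = 1.7e-14). CDKN1C rose by 2.64 in PANC-1 and by 0.63 in HEK293T. CCNG2, an atypical cyclin linked to arrest, rose by 2.72 in PANC-1, and HDAC5, a histone deacetylase, by 2.67, against 0.21 and 0.19 in HEK293T. Under median-ratio scaling these HEK293T changes were 0.00 and -0.03, and that of CCNG2 turned to -0.16 under quantile normalization.
CCND1, the cyclin of early G1, fell by 1.94 in PANC-1 and by 0.79 in HEK293T. CDKN1A, which encodes p21, went the other way round. It was at 16.4, 17.2 and 14.9 FPKM in PANC-1 2D, 14.3, 14.9 and 14.9 at 1 rpm, 9.43, 8.98 and 9.39 in HEK293T 2D and 22.9, 22.5 and 23.5 at 1 rpm. Its PANC-1 libraries met between formats, with a change of -0.12. That change was -0.05 and not called with mitochondrially encoded genes left out and libraries rescaled to equal totals. The HEK293T libraries were far apart between formats (line difference -1.35, SE 0.06, adjusted p = 1.9e-14). The 25 measured of 29 growth arrest and p53 target genes included 12 called with PANC-1 above and 10 below. The shares over the 10510 genes were 38.7% and 38.8%. These 25 genes had no common direction. Their median of 0.05 became -0.07 with the GC and length trend removed.

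Sterol and fatty acid synthesis separated the lines in direction. Of 23 cholesterol genes measured out of 24 listed, 20 had a called difference with PANC-1 above and 1 below, at a median of 1.15. Over the 10510 genes, 38.7% were called above and 38.8% below. In PANC-1, 18 rose and 5 fell (median 0.63). In HEK293T, 2 rose and 17 fell (median -0.51). HMGCS1, which makes the HMG-CoA of the pathway, was at 5.96, 6.15 and 6.64 FPKM in PANC-1 2D and at 27.7, 28.1 and 27.8 at 1 rpm. Its HEK293T libraries were at 10.6, 11.8 and 11.4 in 2D and at 8.8, 9.03 and 8.59 at 1 rpm. The formats did not overlap in either line and moved in opposite directions (line difference 2.31, SE 0.06, adjusted p = 1.2e-18).
FDFT1, the squalene synthase, rose by 1.10 in PANC-1 and fell by 1.10 in HEK293T. LSS, which closes the sterol rings, rose by 0.74 and fell by 1.30.
Not every enzyme followed. PMVK, phosphomevalonate kinase, was the single gene with PANC-1 below (-0.42). The inverted CCAAT box (ATTGG, either strand), where NF-Y binds beside SREBP, was in 15 of 18 cholesterol promoters (83.3%), in 37.5% of those of the 10510 genes and in 35.7% of all promoters.

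The fatty acid list was led by SCD, the desaturase that makes oleate. SCD was at 210, 203 and 204 FPKM in PANC-1 2D and at 575, 572 and 566 at 1 rpm. In HEK293T it was at 213, 211 and 214 in 2D and at 77.7, 77.3 and 80.6 at 1 rpm. The lines thus began at like levels in 2D and ended far apart, with a line difference of 2.90 (SE 0.03, adjusted p = 1.5e-25). FASN, the fatty acid synthase, rose from 37, 35.7 and 35.6 FPKM to 101, 98.1 and 104 in PANC-1 and fell from 74.2, 70.3 and 74.6 to 32.5, 31.2 and 33.3 in HEK293T. The formats did not overlap in either line, as naming it among the opposite movers required (line difference 2.61). SREBF1, the factor upstream of these enzymes, rose by 1.77 in PANC-1 and fell by 0.31 in HEK293T. Over the 14 genes, 10 were called with PANC-1 above and 2 below (median 0.56), against 38.7% and 38.8% of the 10510 genes.

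Inhibitors and effectors of NF-kB signalling rose in PANC-1. NFKBIA encodes the inhibitor that holds NF-kB in the cytoplasm and is itself a direct target, and its promoter is shown for the NF-kB site it carries, in capitals, on the minus strand of chr14:35404700-35404999.
NFKBIA: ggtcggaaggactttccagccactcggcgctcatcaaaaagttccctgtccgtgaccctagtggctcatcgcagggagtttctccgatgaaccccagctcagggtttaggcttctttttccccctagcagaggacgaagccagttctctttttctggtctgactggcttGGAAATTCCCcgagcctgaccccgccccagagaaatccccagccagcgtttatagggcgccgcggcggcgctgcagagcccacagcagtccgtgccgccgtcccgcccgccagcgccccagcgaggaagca

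NFKBIA went from 9.57, 9.96 and 8.85 FPKM to 56.5, 59.5 and 56.7 in PANC-1, and from 18.9, 18.1 and 19.3 to 13.1, 14.7 and 13.5 in HEK293T. The PANC-1 libraries at 1 rpm stood above all others, and the line difference was 2.91 (SE 0.08, adjusted p = 1.5e-17). The HEK293T fall of 0.42 shrank to 0.03 and was no longer called with the GC and length trend removed. Of 21 NF-kB targets listed, 10 were measured in both lines. Of these, 8 were called with PANC-1 above (median 0.78), against 38.7% of the 10510 genes. The other two, RELB at -0.13 and NFKBIZ at 0.18, were not called. In PANC-1, 9 of the 10 rose (median 1.01). ZC3H12A, an RNase that degrades inflammatory transcripts, had a line difference of 1.63, and TNIP1, a partner of the A20 inhibitor, of 1.16. The NF-kB site (GGG, any 2 bases, then TTTCC, on either strand) was in 3 of 8 promoters of the list, in 2.16% of those of the 10510 genes and in 1.92% of all promoters.

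Interferon response and antigen presentation genes rose in PANC-1. Of 28 listed, 16 were measured in both lines. Of these, 15 were called with PANC-1 above (median 1.05), against 38.7% of the 10510 genes. All 16 rose in PANC-1 (median 0.99), 15 of them also under median-ratio scaling. IRF1, a transcription factor of the response, was at 1.98, 2.1 and 2.03 FPKM in PANC-1 2D and at 30.3, 29 and 28.9 at 1 rpm. In HEK293T it was at 2.49, 2.79 and 2.64 in 2D and at 2.76, 2.58 and 2.64 at 1 rpm. The HEK293T formats overlapped and those of PANC-1 were far apart (line difference 3.31, SE 0.07, adjusted p = 1.9e-19). TAP1, which pumps peptides into the endoplasmic reticulum, rose by 1.60 in PANC-1 and fell by 0.47 in HEK293T. HLA-B, a class I heavy chain, was low in PANC-1, at 2.39, 2.53 and 1.85 FPKM in 2D and 9.8, 9.76 and 9.73 at 1 rpm. In HEK293T it was at 65.6, 64 and 67.9 in 2D and 71.3, 68.5 and 73.3 at 1 rpm, a change of 0.11 that was not called. The class I genes are near-identical in sequence, so how the counting split their reads is uncertain. The HEK293T median of this list, 0.12, turned to -0.11 under median-ratio scaling and under quantile normalization.

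PER1 and DBP, genes of the circadian clock, had the highest line differences among genes with a mean of at least 5 FPKM in the higher format of each line. PER1, a repressor of the circadian clock that also answers to glucocorticoid and cyclic AMP signals, was at 3.97, 3.39 and 4.15 FPKM in PANC-1 2D and at 141, 142 and 149 at 1 rpm. In HEK293T it was at 15.4, 14.6 and 15.4 in 2D and at 19.3, 18.1 and 18.5 at 1 rpm. PANC-1 went from the lowest libraries to the highest, a rise of 4.91 log2 units against 0.29 (line difference 4.62, SE 0.07, adjusted p = 7.9e-22). The HEK293T rise was 0.06 and not called under median-ratio scaling. DBP, a factor of clock output, rose from 1.67, 1.94 and 1.6 FPKM to 33.8, 30.6 and 32.6 in PANC-1 and fell from 8.91, 8.46 and 8.04 to 5.92, 5.46 and 5.51 in HEK293T. The formats did not overlap in either line, as naming it among the opposite movers required (line difference 4.12). NR1D1, the REV-ERB alpha repressor, changed by 3.65 and 0.47, and the HEK293T value was 0.01 under quantile normalization.
The core activators moved less. For ARNTL the line difference was 0.02 and not called, and for CLOCK it was -0.79, with a rise of 0.95 in HEK293T and a PANC-1 change of 0.15 that turned to -0.19 under quantile normalization. Over the 13 measured of 20 clock genes, 8 were called with PANC-1 above and 2 below (median 0.48), against 38.7% and 38.8% of the 10510 genes.

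Immediate early factors, which signals induce within minutes, did not move together. NR4A1, NR4A2 and EGR1 rose more in PANC-1, while JUN and ATF3 rose more in HEK293T. The AP-1 subunits were themselves divided, with line differences of 1.16 for FOS and 1.89 for JUNB against -2.19 for JUN. NR4A2 was at 0.736, 0.523 and 0.468 FPKM in PANC-1 2D and at 69.7, 68.2 and 71.9 at 1 rpm, against 1.05, 0.861 and 0.731 in HEK293T 2D and 2.08, 1.75 and 1.66 at 1 rpm. The PANC-1 libraries at 1 rpm stood far above the other 9, and the line difference, 4.91 (SE 0.09, adjusted p = 2.7e-20), was the highest of the 10510. NR4A2 met the minimum of 1 FPKM only through 1 rpm in both lines, so its entry depended on its response. EGR1 changed by 3.39 in PANC-1 and by 0.48 in HEK293T, the latter 0.04 under quantile normalization, and NR4A1 by 3.16 and 0.84.
JUN, a subunit of AP-1, went from 43.9, 41.8 and 40.9 FPKM to 50.7, 53 and 53.8 in PANC-1, and from 84.7, 81.9 and 86.6 to 486, 475 and 486 in HEK293T. The HEK293T libraries at 1 rpm stood far above the rest (line difference -2.19, SE 0.04, adjusted p = 1.6e-20). The PANC-1 rise of 0.31 was 0.07 and not called under median-ratio scaling. Over the 15 measured of 20 factors, 10 were called with PANC-1 above and 5 below, against 38.7% and 38.8% of the 10510 genes. Their median was 0.86 and turned to -0.13 among those with a mean of at least 5 FPKM in each line.

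Among targets of YAP and TAZ were ANKRD1 and CCN2, the lowest line differences of the 10510. CCN2, a matricellular protein and the standard readout of YAP and TAZ activity, is shown with the TEAD site in its promoter in capitals, on the minus strand of chr6:131951323-131951622.
CCN2: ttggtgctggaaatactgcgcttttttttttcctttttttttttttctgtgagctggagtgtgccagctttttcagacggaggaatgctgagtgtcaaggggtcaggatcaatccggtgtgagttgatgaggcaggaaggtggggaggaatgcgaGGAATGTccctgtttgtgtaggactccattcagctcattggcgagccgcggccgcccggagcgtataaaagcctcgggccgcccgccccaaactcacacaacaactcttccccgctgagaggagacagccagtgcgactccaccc

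CCN2 fell from 78.2, 72.6 and 73.3 FPKM to 8.05, 8.24 and 7.61 in PANC-1 and rose from 3.01, 2.61 and 3.03 to 5.37, 5.62 and 5.58 in HEK293T. PANC-1 began far above HEK293T and came close to it at 1 rpm, without overlap (line difference -3.83, SE 0.11, adjusted p = 8.8e-18). CCN1, its close relative, fell from 369, 358 and 356 FPKM to 163, 167 and 167 in PANC-1 and rose from 7.02, 7.3 and 7.72 to 29.6, 28.5 and 30.2 in HEK293T. Formats did not overlap in either line, as naming it among the opposite movers required, and the line difference was -2.99. ANKRD1, a nuclear ankyrin-repeat protein, was lower in level. Its libraries were at 4.82, 5.13 and 4.89 FPKM in PANC-1 2D and 0.197, 0.171 and 0.137 at 1 rpm, and at 0.259, 0.114 and 0.241 in HEK293T 2D and 5.27, 5.06 and 5.35 at 1 rpm. The lines exchanged places, with a line difference of -4.72 (SE 0.09, adjusted p = 2.8e-20). ANKRD1 met the minimum of 1 FPKM only through 2D in PANC-1 and only through 1 rpm in HEK293T, so its entry depended on its response. AJUBA, a LIM protein that restrains the LATS kinases, fell by 1.04 and rose by 0.50.
The list as a whole was mixed. Of 25 targets listed, 18 were measured in both lines. Of these, 11 were called with PANC-1 below and 4 above (median -0.67), against 38.8% and 38.7% of the 10510 genes. The HEK293T median of 0.35 turned to -0.09 under quantile normalization. AMOTL2 fell by 1.59 in PANC-1, and its HEK293T change of -0.07 was not called. NUAK2, a kinase that feeds back on the pathway, had a line difference of 0.94. The letters GGAATGT, on either strand, were in 1 of 11 promoters of the list, that of CCN2, and in 1.88% of those of the 10510 genes and 3.48% of all promoters.

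Some genes of cell shape and attachment fell in PANC-1 and rose in HEK293T, although the keratin and integrin lists did not fall as a whole in PANC-1. KRT8, a keratin of simple epithelia, was at 602, 586 and 587 FPKM in PANC-1 2D and at 287, 276 and 278 at 1 rpm, and at 29.7, 28.4 and 32.1 in HEK293T 2D and 63.7, 57.2 and 60.5 at 1 rpm. It fell by 1.08 in PANC-1 and rose by 0.99 in HEK293T, with no overlap of formats in either line. ITGA2, a collagen-binding integrin chain, fell by 0.85 and rose by 1.38. TPM2, a tropomyosin of actin filaments, fell by 0.42 and rose by 1.23. TNFRSF12A, the receptor for the cytokine TWEAK, went from 157, 157 and 156 FPKM to 68.1, 70.3 and 69.2 in PANC-1 and from 16.1, 15.5 and 15.1 to 62.8, 61.2 and 63.1 in HEK293T. The lines began far apart and came close at 1 rpm (line difference -3.10). Of the measured members, PANC-1 was called below for 9 of 12 keratin, cadherin and epithelial-mesenchymal genes and above for 1. It was called below for 8 of 11 integrins and laminins and above for 2, and below for 11 of 20 actin and SRF genes and above for 8. Over the 10510 genes, 38.8% were called below and 38.7% above, so the actin count with PANC-1 above was near the share of all genes. In PANC-1 the keratin list had 6 rises and 5 falls (median 0.16, and -0.06 under median-ratio scaling), the integrin list 7 and 4 (median 0.30) and the actin list 3 and 16 (median -0.51).

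The amino acid stress response driven by ATF4 rose further in HEK293T. Of 27 listed, 24 were measured. Of these, 21 were called with PANC-1 below and 3 above (median -0.64), against 38.8% and 38.7% of the 10510 genes. In HEK293T, 22 rose and 2 fell (median 0.88). In PANC-1, 15 rose and 8 fell (median 0.47), against 52.8% and 34.2% of the 10510 genes. CHAC1, an enzyme that degrades glutathione and a direct target of the pathway, is shown with the CEBP-ATF element of its promoter in capitals, on the plus strand of chr15:40953221-40953520.
CHAC1: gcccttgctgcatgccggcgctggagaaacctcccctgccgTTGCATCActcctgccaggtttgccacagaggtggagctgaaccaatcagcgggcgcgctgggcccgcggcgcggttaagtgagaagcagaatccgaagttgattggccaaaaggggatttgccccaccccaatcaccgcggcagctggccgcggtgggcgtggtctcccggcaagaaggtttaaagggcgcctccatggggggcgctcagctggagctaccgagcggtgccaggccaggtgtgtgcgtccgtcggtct

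CHAC1 fell from 1.59, 1.67 and 1.37 FPKM to 0.914, 0.743 and 0.969 in PANC-1 and rose from 0.905, 0.943 and 0.93 to 9.69, 8.85 and 9.08 in HEK293T. The HEK293T libraries at 1 rpm stood above all others (line difference -2.85, SE 0.08, adjusted p = 1.4e-17). CHAC1 met the minimum of 1 FPKM only through 2D in PANC-1 and only through 1 rpm in HEK293T, so its entry depended on its response. SLC7A11, the cystine importer, rose by 1.47 in PANC-1 and 3.64 in HEK293T. ATF3, a stress-induced factor, went from 1.36, 1.48 and 1.58 FPKM to 5.22, 5.69 and 5.63 in PANC-1 and from 12.8, 12.7 and 12.6 to 129, 125 and 128 in HEK293T. It rose in both lines, by 1.40 and 3.23, and the HEK293T libraries were higher in either format. ASNS, the asparagine synthetase, rose by 1.42 and 3.17. The 3 genes on the other side were PHGDH at 0.42, which starts serine synthesis, ATF4 itself at 0.79 and DDIT3, which encodes CHOP, at 0.68 with rises of 2.44 in PANC-1 and 1.75 in HEK293T. The letters TTGCATCA, on either strand, were in the CHAC1 promoter alone of 21 in the list, in 0.424% of those of the 10510 genes and in 0.923% of all promoters.
Genes of damage and apoptosis differed in both directions. Of 11 measured BCL2 family genes, 6 were called with PANC-1 above and 2 below (median 0.42), or 6 and 5 under quantile normalization. The shares over the 10510 genes were 38.7% above and 38.8% below. BBC3, which encodes the death-promoting PUMA, rose by 2.27 in PANC-1 and by 1.05 in HEK293T. GADD45A, a stress sensor, was at 20.9, 20.1 and 21.3 FPKM in PANC-1 2D and 23.1, 24.6 and 26.3 at 1 rpm, and at 30.8, 30.7 and 30.3 in HEK293T 2D and 188, 191 and 185 at 1 rpm. The HEK293T libraries at 1 rpm were far above the rest (line difference -2.35), and the PANC-1 change of 0.24 was lost under median-ratio scaling. PMAIP1, which encodes the death-promoting NOXA, rose by 2.60 in HEK293T, and its PANC-1 change of 0.14 was not called. MCL1, the survival protein that NOXA binds, went from 94.9, 99.8 and 100 FPKM to 270, 271 and 270 in PANC-1 and from 69.5, 77.9 and 69.7 to 60.9, 65.2 and 60.1 in HEK293T. The formats did not overlap in either line, but the HEK293T change of -0.22 was 0.04 under quantile normalization. The line difference was 1.67 (SE 0.05, adjusted p = 5.2e-17).

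**Figure D3:**
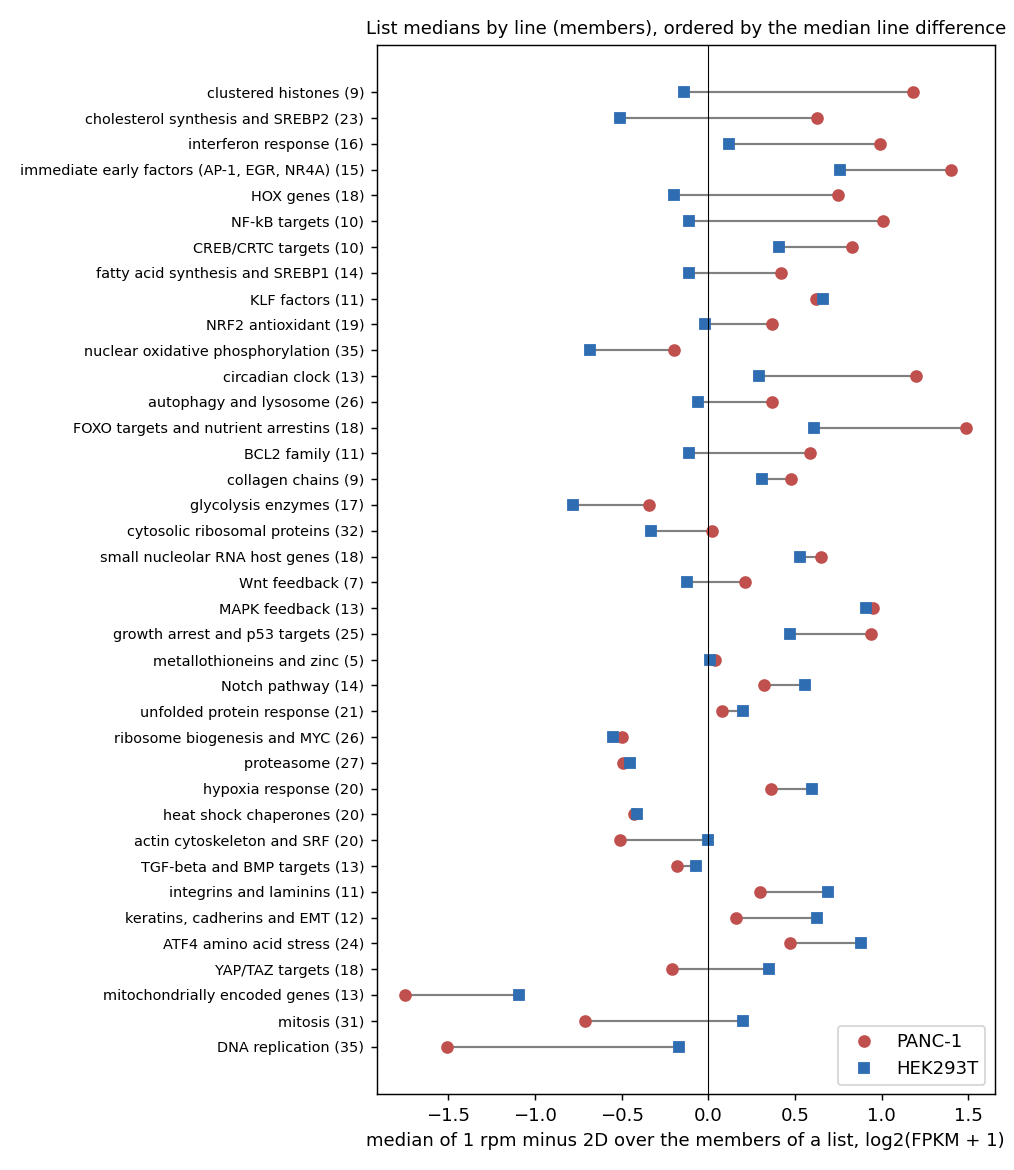
Median change from 2D to 1 rpm, as log2(FPKM + 1), over the measured members of each of 38 gene lists in PANC-1 (red circles) and HEK293T (blue squares), with the number of members in brackets. Lists are ordered by the median line difference, from DNA replication at -1.35 to clustered histones at 1.71.

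Some strong responses were alike. NGFR, a neurotrophin receptor, went from 1.14, 1.49 and 1.3 FPKM to 37.2, 35.9 and 38.9 in PANC-1 and from 0.8, 1.1 and 1.11 to 39.1, 38.6 and 40.2 in HEK293T. Both lines began near 1 FPKM and ended near the same level, with rises of 4.06 and 4.33. The interval of the line difference ran from -0.45 to -0.10. The difference was called, though not under median-ratio scaling. TXNIP, an inhibitor of glucose uptake, rose by 3.54 and 3.66 from unequal starting levels of 0.574, 0.95 and 0.637 FPKM in PANC-1 and 15.3, 15.6 and 16.2 in HEK293T. It reached 19, 19.1 and 18.8 FPKM in PANC-1 and 212, 207 and 212 in HEK293T. Since PANC-1 began under 1 FPKM, its line difference of -0.12 became 0.83 with a pseudocount of 0.1. HNRNPM, a splicing factor, fell by 1.58 and 1.86.

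Values in the other spheroid formats are set side by side without a test, because each shares its 2D libraries with the 1 rpm comparison. For the cholesterol list, the median line difference was 1.15 at 1 rpm, 0.99 at 30 rpm and -0.43 in AggreWell. For DNA replication it was -1.35, -1.11 and -0.07, and for mitosis -1.08, -1.14 and 0.05. For the interferon list it was 1.05, 1.05 and 0.01. For YAP and TAZ targets it was -0.67, -0.72 and -0.47, and for the ATF4 list -0.64, -0.04 and -0.26. Single genes differed among themselves and are given in the same order of formats. SCD stood at 2.90, 2.15 and -0.44, and PER1 at 4.62, 3.58 and -0.33. CCN1 stood at -2.99, -2.40 and -1.76, and JUN at -2.19, -1.31 and -2.02, so these kept a large value in AggreWell.

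**Figure D4:**
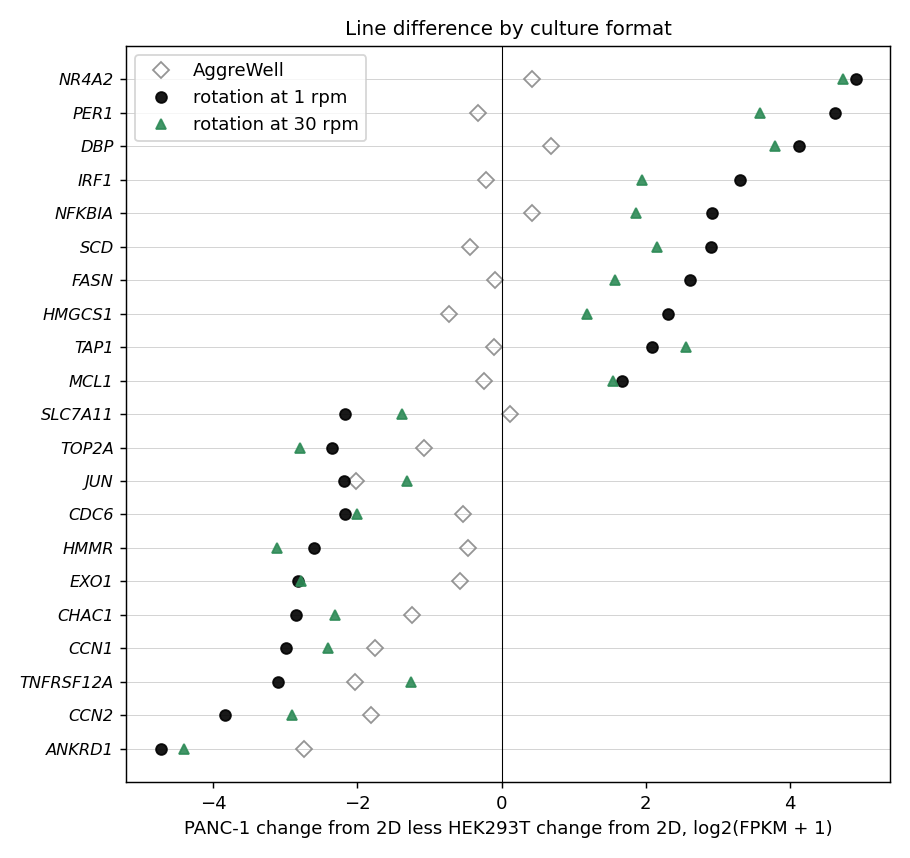
Line difference (PANC-1 change from 2D less HEK293T change from 2D, in log2 units) for 21 genes in AggreWell (open diamonds), at 1 rpm (black circles) and at 30 rpm (green triangles), from group means of 3 libraries. Values at 1 rpm and 30 rpm lie on the same side of 0 for all 21 genes, and AggreWell values for the sterol, interferon and clock genes lie nearer 0 or on the other side.

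Transcript composition moved with the line difference. Over 10304 genes with a GC value, the line difference had a Pearson r of 0.38 with GC content, the HEK293T response -0.37 and the PANC-1 response -0.02. In 5 equal bins of rising GC content, the median line difference was -0.35, -0.20, 0.04, 0.21 and 0.30. With the trend in GC content and length removed from each library, an alternative chosen after the data were seen, 358 genes had a difference of at least 2-fold with PANC-1 above and 543 below. Of the 1122 genes in both analyses, all 1122 were still called in the same direction and 745 still reached 2-fold. The median was then -1.30 for DNA replication, -0.92 for mitosis, 1.10 for cholesterol synthesis, 0.84 for the interferon list, -0.61 for YAP and TAZ targets and -0.61 for the ATF4 list. Whether the GC trend arose in the libraries or in the cells was not tested.

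**Figure D5:**
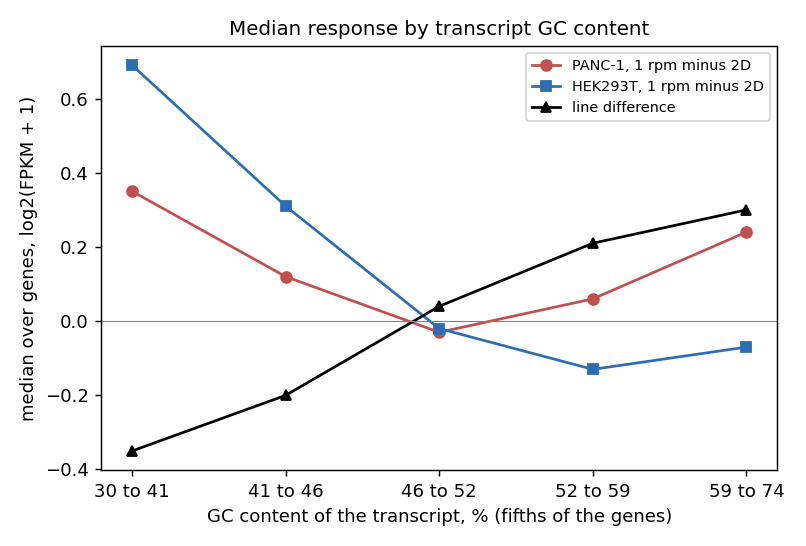
Median change from 2D to 1 rpm in PANC-1 (red circles) and HEK293T (blue squares) and median line difference (black triangles), in log2(FPKM + 1), for 10304 genes in 5 equal bins by GC content of the transcript. The HEK293T median falls from 0.69 in the AT-rich bin to -0.07 in the GC-rich bin, while the PANC-1 median is 0.35 and 0.24.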

How the data were processed

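RNA was measured in 24 libraries, 3 for each of 4 culture formats in 2 lines. The authors deposited a table of FPKM for 26450 gene symbols. The submitters' processing notes name fastp, HISAT2, HTSeq, R 3.2.0 and the build mm10, although the symbols are human. Their roles and the strand setting are not given in the sources used here.

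For 26449 genes, all values were whole multiples, within 0.01, of the worth of 1 fragment, so depth could be recovered (32021638 to 39556154 fragments per library). The 13392 genes that reached 1 FPKM in 3 or more libraries were tested on log2(FPKM + 1) with limma 3.58.1 (R 4.3.3, trended variance) over all 24 libraries in 8 groups. P-values were adjusted over the 13392 genes by the Benjamini-Hochberg method and called under 0.05. Fold changes on this scale understate the change of low genes. Data were simulated for the line difference over 13392 genes, with independent noise that copied the spread of these libraries within groups. In them, 100 genes were changed by 1.5-fold and 100 by 2-fold. All changed genes were drawn from members with a mean of at least 5 FPKM in PANC-1 2D. The test found 95 of 100 at 1.5-fold and 100 of 100 at 2-fold, with 10 false calls. Recovery was not measured by expression level, so these counts do not show how well changes in low genes were found. Because the noise copied a spread that may be technical, the false calls do not measure error between separate cultures.

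Members and gene lists were chosen with earlier results of these data known. Named genes were the 6 largest called line differences in each of 6 patterns, and the 5 largest shared rises and 5 largest shared falls, all at a mean of at least 5 FPKM in the higher format of each line. The 4 largest called members of each list were added without that minimum, and other genes were chosen after their values were seen. Promoters came from the RefSeq GRCh38.p14 table by symbol. Alternatives were a pseudocount of 0.1, no filter, members at 5 FPKM, median-ratio scaling, quantile normalization and the 12 compared libraries only. Mitochondrially encoded genes were also left out, with every library then rescaled to an equal FPKM total. Further alternatives were robust shrinkage, voom on recovered fragments, a replicate block and leaving out each library. Removal of the GC and length trend was added after the data were seen.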

Additional observations from a re-analysis of the deposited data

Results flagged for a closer look

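The change from 2D to 1 rpm differed between the lines, by the test of the difference itself, for 8150 of 10510 genes. The named genes in which the lines moved in opposite directions are listed here with their line difference. PANC-1 rose and HEK293T fell for DBP (4.12), NFKBIA (2.91), SCD (2.90), EFNA1 (2.80), FASN (2.61) and PIM3 (2.61). EFNA1 encodes an ephrin ligand and PIM3 a survival kinase. For EFNA1 the HEK293T fall of 0.40 was 0.02 and not called with the GC and length trend removed, and for PIM3 the fall of 0.28 was 0.05 and not called under quantile normalization. PANC-1 fell and HEK293T rose for CCN2 (-3.83), TNFRSF12A (-3.10), CCN1 (-2.99), EXO1 (-2.82), ERCC6L (-2.73) and ATAD2 (-2.62). These 6 kept both directions under median-ratio scaling, quantile normalization and removal of the GC and length trend.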

How the results depend on the processing

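Of 192 counts under 24 alternatives, 187 stayed within 1.5 times. Medians of the gene lists were less stable. Of 905 list medians under these alternatives, 103 moved by more than the spread between libraries and 802 did not. The YAP and TAZ median of -0.67 was -0.26 under quantile normalization and -1.11 among members at 5 FPKM. The fatty acid median of 0.56 was 0.48 with mitochondrially encoded genes left out and 0.87 among members at 5 FPKM. Differences of at least 2-fold numbered 817 above with a pseudocount of 0.1, 856 above and 1062 below with voom, and 302 above and 437 below among the 7038 genes with a mean of at least 5 FPKM. Reversed signs were TXNIP at 0.83 (pseudocount 0.1) and 0.99 (voom), CREBRF at -0.08 and -0.24 under the same settings, POP1 at -0.35 (voom), and ARRDC3 at 0.20 and SLC39A10 at 0.16 with the GC and length trend removed, with or without a replicate block. Leaving out 1 library gave 7933 to 8221 called genes, 462 to 501 at 2-fold above and 635 to 676 below. With the replicate block, 8233 genes were called against 8150, and no named gene changed its call. Same-numbered deviations correlated at -0.0963 to 0.132 in PANC-1, where the numbers do not pair the libraries. In HEK293T all 3 were above 0.1 (0.205, 0.509 and 0.211), but replicate 1 in 2D correlated more with replicate 3 at 1 rpm (0.279), so pairing there was not settled; the block gave 9143 called genes in HEK293T against 9090. With mitochondrially encoded genes left out and every library rescaled to an equal FPKM total, 3481 genes were above and 4638 below. The cause was not tested in any of these.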

Other observations

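HOX genes, which set position along the body axis, stood mostly with PANC-1 above. Of 36 listed, 18 were measured in both lines. Of these, 15 were called above and 1 below (median 0.83), against 38.7% and 38.8% of the 10510 genes. HOXB6 went from 25.7, 22.9 and 24.7 FPKM to 66.3, 66.2 and 67.2 in PANC-1 and from 22.4, 21.5 and 21.3 to 13.2, 12.8 and 13.8 in HEK293T, with a line difference of 2.08 (SE 0.06). The lines began alike in 2D and ended apart. In HEK293T 13 HOX genes fell, and the HEK293T median of -0.20 turned to 0.12 with the GC and length trend removed.

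Energy and stress lists held other differences. Nuclear genes of oxidative phosphorylation were called with PANC-1 above for 29 of 35 and below for 2 (median 0.49). In HEK293T 34 fell, and in PANC-1 22 fell and 5 rose (median -0.20). The PANC-1 counts depended on the scaling. Under quantile normalization 14 fell and 13 rose (median 0.01), and under median-ratio scaling 30 fell and 0 rose (median -0.44). Mitochondrially encoded genes had the reverse order, with 10 of 13 called with PANC-1 below (median -0.79) and ND4, ND4L and ND5 not called. ND1, a subunit of complex I, fell by 2.40 in PANC-1 and by 1.08 in HEK293T, while the changes of ND4 in the same complex, 0.01 and 0.04, were not called. ENO2, a neuronal enolase, fell by 0.42 in PANC-1 and rose by 1.65 in HEK293T. Of 17 glycolysis genes, though, 11 were called with PANC-1 above and 3 below, against 38.7% and 38.8% of the 10510 genes. HSP90AA1, the inducible chaperone, rose by 1.56 in HEK293T, and its PANC-1 change of 0.03 was not called. ID2, an inhibitor of differentiation factors, fell by 2.05 in PANC-1, against a HEK293T change of 0.33 that was 0.09 and not called under median-ratio scaling. SNAI2, a repressor of epithelial genes, fell by 0.88 and rose by 0.60. GABARAPL1, an autophagosome protein, rose by 3.17 and 1.14. PIK3IP1, a brake on PI3 kinase, rose by 3.08 and 0.80.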
